A study of Drosophila melanogaster with 12 samples.

Results

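The dependence of the rapamycin response on REPTOR was described with all 12 arrays of the series, as a design of 2 genotypes by 2 foods. For each target the rapamycin effect in control larvae was subtracted from that in REPTOR knockout larvae, and this difference of effects is the quantity followed here. A difference that opposes the control effect means a smaller or reversed response without REPTOR, and one in the same direction a larger response. The arrays carried 25842 targets, of which 18757 were bright enough to test.

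Rapamycin inhibits TORC1, the kinase complex that couples nutrient supply to growth. REPTOR is a bZIP transcription factor that active TORC1 keeps phosphorylated and out of the nucleus, and when TORC1 is inhibited REPTOR enters the nucleus, pairs with REPTOR-BP and activates transcription. In the fly its targets are known for roles in metabolism and in the restraint of growth, and TORC1 inhibition also acts on transcription through other factors.

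The control was w1118 and the mutant is labelled REPTOR_KO, with no allele given, so differences in genetic background cannot be told apart from the loss of REPTOR. Growth-controlled larvae, taken 48 h before wandering, ate food with 200 µM rapamycin or with the matching amount of ethanol (EtOH) for 6 h. All are labelled female. Each of the 4 groups had 3 arrays, described as biological replicates, and each array received labelled RNA made from 0.5 µg of total RNA of larvae. Fewer cells of a type and less RNA per cell cannot be told apart in such material. No probe could be matched to REPTOR itself, so the deleted gene gives no check of the genotype labels, and none of the larval storage protein genes was matched either.

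A level is the log2 signal relative to the 75th percentile of its array. A target was called in a comparison where the adjusted p of limma (Benjamini-Hochberg over all 18757 targets, two-sided) was under 0.05. Only 139 of the tested targets carry a gene symbol other than a bare number. The others are known by a transcript or clone identifier that the reference table does not pair with a gene.

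Libraries differed in a male signal despite the label. roX2 is a noncoding RNA that males use for dosage compensation of the X chromosome. Among rapamycin arrays its level was 0.01 and -1.10 on knockout arrays 1 and 2 and -1.29 on control array 3. Knockout array 3 had -5.83 with the same food, and on the other 8 arrays roX2 lay between -9.06 and -6.90 and was not well above background. The partner RNA roX1 was well above background on all arrays, with 2.91 to 3.88 on the same 3 arrays and -1.57 to 0.43 on the rest. The 67 tested clones of an adult testis library had median levels of -3.22 to -2.004 on the 3 arrays and of -5.17 to -4.79 on the others. Of all tested targets 925 (4.93%) were higher by more than 1 (log2) on these 3 arrays than on the other arrays of their groups, as the mean over both rapamycin groups. Such a gap widens the spread within a group, and 0 of the 925 had a called difference of effects. The part of the male signal in the remaining results was not tested, and some values are also given without these arrays.

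The difference of effects was called for 2743 targets, 14.6% of those tested, of which 1499 (7.99%) had a lower and 1244 (6.63%) a higher rapamycin effect in the knockout. A further count at an unadjusted p under 0.05 gave 5369. At least 2-fold differences made up 789 of the calls. The 95% interval of a difference had a median half-width of 0.39 on the log2 scale, so differences below that size were mostly not resolved with 3 arrays per group. Both single-genotype comparisons stand beside this count, and they share no array. In control larvae 8082 targets (43.1%) were called, with 21.2% of the tested targets higher and 21.8% lower on rapamycin. In knockout larvae 2877 (15.3%) were called. The adjustment ran within each comparison, so a knockout effect had to be larger against its SE to be called. FBtr0084851 with -0.47 ± 0.16 was called in control larvae (limma adjusted p = 0.0402). Nepl4 with 0.40 ± 0.12 was not called in the knockout (adjusted p = 0.0541).

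Sorting the 8082 control responses by these calls gave the classes that the rest of the text follows. The classes were formed from the same values, so their counts and medians are descriptions. In 2002 targets (24.8% of the control responses) the response was lost, meaning that the difference was called toward 0 and the effect in knockout larvae was not called. In 437 (5.41%) it was reduced but still called in the knockout, and in 1690 (20.9%) it was kept, being called the same way in both genotypes with no called difference. In 95 (1.18%) it was inverted, and in 8 it was larger in the knockout. Single arrays moved these counts: without knockout ethanol array 1, 798 targets were kept and 38 inverted, and without knockout rapamycin array 2, 1013 were kept and 40 inverted. The largest share, 3850 targets (47.6%), was not resolved: these were called in control larvae, not called in knockout larvae, and their difference was not called either. The stricter bar for a knockout call favours lost over reduced and not resolved over kept.

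**Figure D1:**
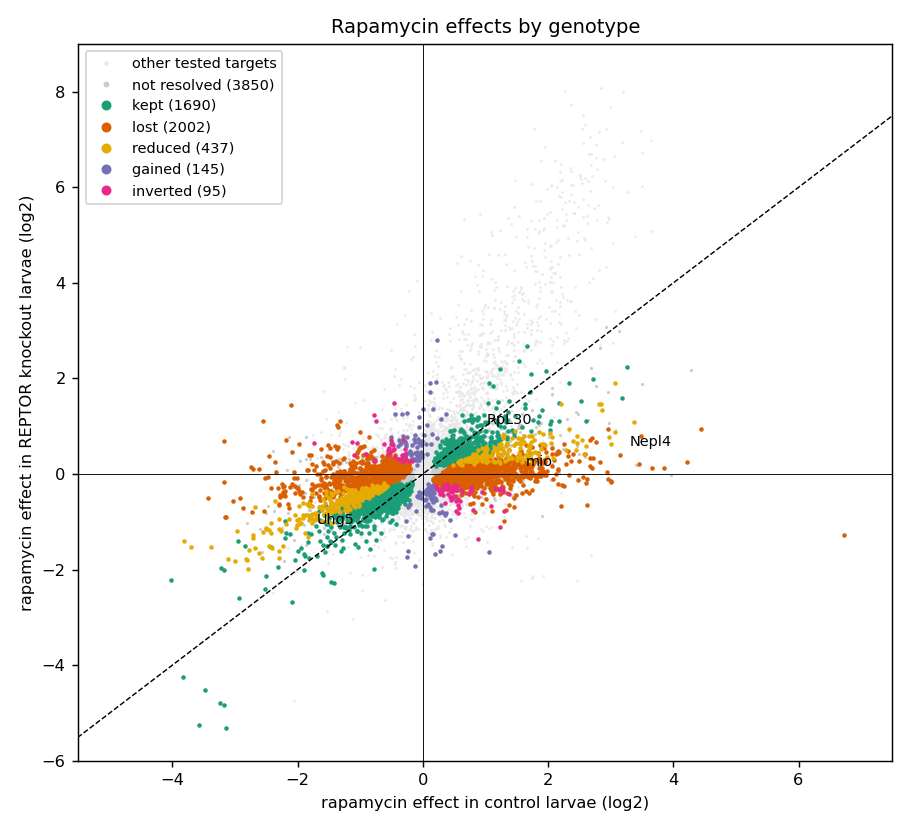
Rapamycin effect in control larvae (x axis, log2) against that in knockout larvae (y axis, log2) for each tested target, coloured by class, with the dashed line at equal effects. The 2002 lost targets lie along the horizontal line at 0, the 1690 kept targets along the dashed line, and the 95 inverted targets in the upper left and lower right. Of the 202 rising targets with a mean effect of 2 or more, at the upper right, 182 carry the male signal of 3 rapamycin arrays.

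In the unresolved targets the class rule largely sets the direction of the difference. At the same SE, a knockout effect that was not called is nearly always smaller than a control effect that was. Of the 3850, 3800 had a difference that opposed the control effect, and 3313 had the same sign in both genotypes. Their median effect was 0.44 with REPTOR and 0.17 without it for the 1932 that rose in control larvae, and -0.44 and -0.15 for the 1918 that fell. The effects were called in the control, a selection that makes the control side larger, so these counts are given as a description. For 1228 of them the 95% interval of the difference lay within 0.5 on the log2 scale in either direction.

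The share of the response that remained without REPTOR was measured on targets called in the mean effect of both genotypes, a choice that favours neither. The 4464 rising targets (23.8% of those tested) had a median effect of 0.52 with REPTOR and 0.26 without it, which is a retained share of 49.5% ± 8.78 (SD over the 3 knockout rapamycin arrays). The 4143 falling targets (22.1%) had medians of -0.56 and -0.29, a retained share of 51.9% ± 8.55. Toward 0 in the knockout lay 74.2% of the rising and 82.0% of the falling targets.

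Array by array, the knockout rapamycin arrays gave 43.0%, 58.7% and 43.9% of the control rise and 60.9%, 44.3% and 49.3% of the control fall. The control rapamycin arrays, each set against the same ethanol mean, gave 95.5% to 100% of the rise and 98.1% to 102% of the fall. Their centre near 100% is fixed in advance, since the same 3 arrays set the control effect. The knockout arrays all lay below the control arrays for both directions. The distance between the medians of the rising and falling targets, which a shift of a whole array does not touch, was more even between arrays. It was 52.3%, 51.2% and 46.7% of the control distance on the 3 knockout arrays, 50.8% ± 2.98 in all. These SDs leave out the spread of the ethanol arrays. Without knockout ethanol array 1 the share of the distance was 46.0%, and without knockout ethanol array 2 it was 55.1%. The distance was chosen as a measure after the values had been seen.

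**Figure D2:**
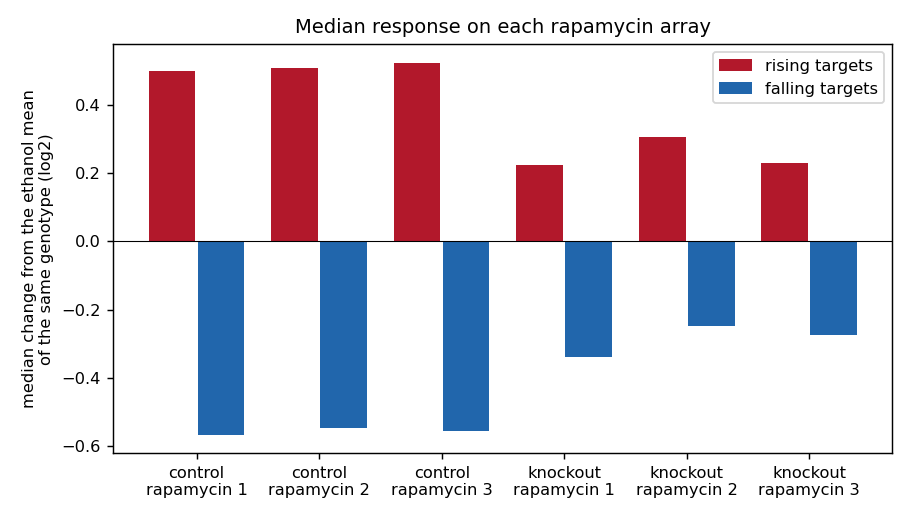
Median change from the ethanol mean of the same genotype (y axis, log2) on each rapamycin array (x axis), for the 4464 rising and the 4143 falling targets. The rising targets stand at 0.50 to 0.52 on the 3 control arrays and at 0.23 to 0.31 on the 3 knockout arrays, and the falling targets at -0.57 to -0.55 and at -0.34 to -0.25.

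The scaling of the arrays moved these shares. With arrays centred on their median, the rise retained was 36.8% and the fall retained 86.5%, and the median of all differences was -0.12 in place of 0.01. In that scaling 431 differences were called, 99 higher and 332 lower, so 23.0% of the calls were higher in place of 45.4%. The median signal used for centring was 318 on knockout rapamycin array 1 and 164 to 200 on the other arrays. The part of that array in the change was not tested.

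The retained share was also read by the size of the response. Rising targets with a mean effect below 0.5 kept 51.7%, those from 0.5 to 1 kept 41.4%, and those from 1 to 2 kept 57.8%. The 202 rising targets with a mean effect of 2 or more had 194%, and 182 of them were among the targets that carry the male signal. Without the 3 arrays with raised roX2 the 4 shares were 46.7%, 39.7%, 52.1% and 56.6%, the last over 25 targets. The falling targets kept 48.6%, 54.9%, 56.5% and 63.0% in the same order of size, and 49.7%, 56.5%, 56.7% and 64.7% without those arrays.

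Large responses of control larvae were sorted apart. Of the 759 targets that rose at least 2-fold, 383 (50.5%) were lost, 109 (14.4%) reduced, 75 (9.88%) kept, 9 inverted and 183 (24.1%) not resolved. Of the 830 that fell at least 2-fold, 259 (31.2%) were lost, 195 (23.5%) reduced, 206 (24.8%) kept, 4 inverted and 166 not resolved. The median retained share was 19.1% for the large rises and 40.0% for the large falls. Choosing targets by the control effect overstates that effect, which lowers these shares against those above, and the difference between the directions moves with the scaling and was not tested.

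A rise was lost in 1168 targets, with a median effect of 0.79 with REPTOR and 0.02 without it. Among the 9 with a symbol, Nepl4 encodes a neprilysin-like metallopeptidase. Its levels in control larvae were -0.85, -0.70 and -0.55 on ethanol and 2.50, 2.43 and 2.43 on rapamycin. In knockout larvae they were -0.83, -0.36 and -0.65 on ethanol and -0.28, -0.27 and -0.10 on rapamycin. The knockout rapamycin arrays lay just above their ethanol arrays and far below every control rapamycin array. The effect of 0.40 ± 0.12 (SE) in the knockout missed the threshold (limma adjusted p = 0.0541) and was 12.6% of the control effect, with a 95% interval of the difference from -3.14 to -2.37.

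mio encodes a subunit of GATOR2, the complex that opposes the GATOR1 brake on TORC1. It stood at 0.65, 0.57 and 0.60 in control larvae on ethanol and at 2.11, 2.15 and 2.08 on rapamycin. In the knockout the levels were 0.60, 0.75 and 0.64 on ethanol and 0.69, 0.60 and 0.67 on rapamycin, so the knockout arrays of both foods overlapped with each other and with control larvae on ethanol. A second probe for mio gave a difference of -1.65 ± 0.09 beside -1.52 ± 0.08 for the probe used.

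Hsl encodes hormone-sensitive lipase, which breaks down stored fat. Control larvae had -0.48, -0.65 and -0.62 on ethanol and 0.35, 0.39 and 0.32 on rapamycin. Knockout larvae had -0.60, -0.48 and -0.60 on ethanol and -0.70, -0.61 and -0.42 on rapamycin. Only the control rapamycin arrays stood above 0, and the other 9 arrays overlapped.

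caps encodes a cell-surface protein with leucine-rich repeats that guides axons to their targets. It had -0.62, -0.70 and -0.73 against -0.04, 0.08 and -0.05 in control larvae and -0.66, -0.72 and -0.71 against -0.63, -0.54 and -0.57 in knockout larvae. The effect was 0.68 ± 0.06 with REPTOR and 0.12 ± 0.06 without it (difference -0.56 ± 0.08, limma adjusted p = 0.00219). mxt, which encodes an eIF4E-binding translation factor, had -3.51, -3.72 and -3.74 against -2.86, -2.88 and -2.81 in control larvae and -3.61, -3.64 and -3.51 against -3.55, -3.47 and -3.66 in the knockout. Here too only the control rapamycin arrays stood apart, although with normexp background correction the difference of mxt turned to 0.085.

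The remaining lost rises with a symbol were weaker or dimmer. The heat-inducible noncoding RNA lncRNA:alphagamma-element:CR32865 had effects of 0.70 ± 0.13 in control and -0.18 ± 0.13 in knockout larvae, and the minor spliceosome RNA snRNA:U11 of 1.40 ± 0.27 and 0.11 ± 0.27. With normexp both differences turned sign, to 0.21 and 0.43. snRNA:U11 was well above background on only 2 of the 3 control ethanol arrays. Its genotype gap (knockout minus control) was 0.92 on ethanol and -0.37 on rapamycin, neither of them called. For kek1, which encodes an inhibitor of the EGF receptor, the genotypes differed on ethanol food and not on rapamycin. Its levels were -0.49, -0.91 and -0.91 in control larvae on ethanol, -0.15, -0.16 and -0.04 on rapamycin, and in the knockout -0.10, -0.23 and 0.17 on ethanol and -0.40, -0.25 and -0.04 on rapamycin. The knockout was 0.71 higher on ethanol (limma adjusted p = 0.0271) and -0.11 from control on rapamycin (adjusted p = 0.596), so its genotype difference lay on ethanol food.

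Of the lost rises without a symbol that were well above background on all 12 arrays, FBtr0087746 had the largest difference. It stood at 2.75, 2.88 and 2.69 on the control rapamycin arrays and between -5.52 and -0.97 on the other 9, where single ethanol arrays of both genotypes (-1.95 and -0.97) stood apart from their groups. Its difference was -8.01 ± 1.61, with an interval from -11.60 to -4.41. TC237923 was more even, with 4.00, 4.29 and 4.16 on the control rapamycin arrays and -0.10 to 1.00 on all others. FBtr0082176 resembled kek1: in the knockout it was already at 3.36, 3.74 and 3.89 on ethanol, where control larvae had 1.37, -0.27 and 0.41, and on rapamycin it was at 3.78, 4.19 and 3.78 in the knockout against 4.58, 4.94 and 4.66.

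Which food carries the genotype difference was then counted for all called differences. Among the 1499 targets with a lower effect in the knockout, the median gap between genotypes (knockout minus control) was 0.06 on ethanol and -0.68 on rapamycin. The gap was called on rapamycin food alone for 1237 of them, on ethanol food alone for 71, on both for 90 and on neither for 101. Among the 1244 with a higher effect the median gaps were -0.17 and 0.50, and the counts 884, 140, 71 and 149. Over all tested targets the genotypes differed on 27.9% (5226) with rapamycin and on 6.4% (1200) with ethanol. No slide holds both genotypes on the same food, so on either food the genotype gap cannot be told apart from a difference between slides. kek1 and FBtr0082176 thus belong to the smaller group whose genotype difference lies on ethanol food.

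**Figure D3:**
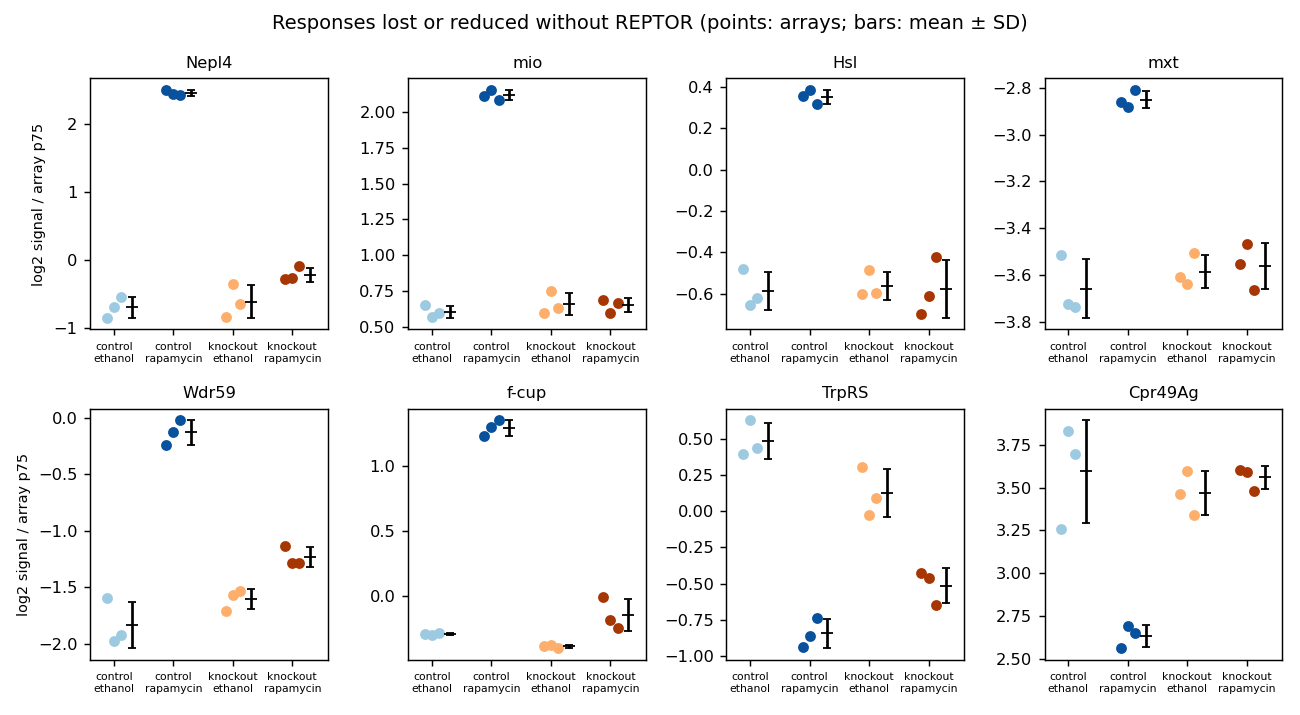
Levels (y axis, log2 signal relative to the 75th percentile of the array) of 8 targets in the 4 groups (x axis), one point per array, with the mean and SD of 3 arrays beside them. In Nepl4, mio, Hsl and mxt the control rapamycin arrays stand apart from the other 9 arrays. In Wdr59, f-cup and TrpRS the knockout response is present but smaller, and in Cpr49Ag the fall is seen in control larvae alone.

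A fall was lost in 834 targets, with a median effect of -0.76 in control and -0.04 in knockout larvae, and 8 of them had a symbol. They include cuticle, matrix and secretory genes. The cuticle protein gene Cpr49Ag had 3.26, 3.83 and 3.70 against 2.56, 2.69 and 2.65 in control larvae and 3.46, 3.60 and 3.34 against 3.60, 3.59 and 3.48 in knockout larvae. The control rapamycin arrays were the 3 lowest, and the knockout arrays of both foods overlapped. Cpr60D, another cuticle protein gene, had effects of -0.48 ± 0.10 in control and 0.03 ± 0.10 in knockout larvae. The arrays behaved alike there, with 5.84, 5.87 and 5.87 in control larvae on rapamycin and 6.19 to 6.54 on all others.

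LanA, the laminin alpha chain of basement membranes, had 3.88, 4.08 and 4.04 against 3.69, 3.68 and 3.43 in control larvae and 3.99, 3.85 and 3.98 against 3.94, 4.05 and 4.03 in the knockout. CrebA, a bZIP factor that drives secretory pathway genes, had -0.86, -0.81 and -0.77 against -1.46, -1.44 and -1.54 in control larvae and -0.66, -0.59 and -0.66 against -0.96, -0.76 and -0.70 in the knockout. In both genes the control rapamycin arrays were the 3 lowest. CrebA rests on 1 of 2 probes: the second, well above background on 8 arrays, went the other way, and the mean of both had a difference of -0.25. Chpf, which encodes a chondroitin polymerizing factor, kept 35.9% of its control effect of -0.78 ± 0.09, a knockout effect that was not called (limma adjusted p = 0.0738). aralar1, the mitochondrial aspartate-glutamate carrier gene, kept 25.6% of -0.97 ± 0.14, also not called in the knockout.

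In 2 of the 8 the genotype gap lay on ethanol food. FeCH, encoding ferrochelatase of haem synthesis, had 2.26, 2.37 and 2.39 in control larvae on ethanol and between 1.85 and 2.09 on the other 9 arrays, and cl, a gene of eye pigment synthesis, had 4.09, 4.19 and 4.16 there and 3.72 to 3.94 elsewhere. On ethanol the knockout stood -0.32 (FeCH, limma adjusted p = 0.0243) and -0.29 (cl, adjusted p = 0.0391) from control. On rapamycin the gaps were -0.02 and 0.06.

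The calls differed in how often they held. Out of 25 other settings the call held in 7 for aralar1 and FeCH, 8 for Cpr60D, LanA and cl, 10 for Chpf, 21 for CrebA and 22 for Cpr49Ag. Of the lost rises it held in 25 for Nepl4 and mio, 24 for Hsl, 22 for caps and mxt, 20 for lncRNA:alphagamma-element:CR32865 and 14 for kek1, and for snRNA:U11 in 6 of the 24 settings that gave a value. Among targets without a symbol, TC239916 was steady, with -1.02, -1.30 and -1.17 against -4.63, -4.59 and -4.55 in control larvae and -0.58, -0.51 and -0.80 against -0.72, -1.12 and -1.55 in the knockout. That is a fall of 3.42 on the log2 scale with REPTOR against an uncalled -0.50 without it, and the call held in all 25.

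Responses that were reduced but still called in the knockout numbered 437. The 156 rises had median effects of 1.28 and 0.42, and the 281 falls -1.20 and -0.53. Wdr59, another GATOR2 subunit, had -1.60, -1.98 and -1.93 against -0.24, -0.12 and -0.02 in control larvae and -1.71, -1.57 and -1.53 against -1.13, -1.29 and -1.28 in knockout larvae. Rapamycin arrays stood above ethanol arrays in both genotypes, and the knockout kept 21.7% of the effect. The rise in the knockout was near the threshold (0.37 ± 0.11, limma adjusted p = 0.0461).

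f-cup, a gene transcribed late in spermatogenesis, had -0.29, -0.30 and -0.29 against 1.23, 1.29 and 1.35 in control larvae and -0.38, -0.38 and -0.40 against -0.01, -0.18 and -0.24 in knockout larvae. It kept 15.3% of the control effect. Its highest level in each rapamycin group was on the array with the highest roX2 (1.35 and -0.01). Without the 3 arrays with raised roX2 its difference was -1.41, beside -1.34 with all arrays. The f-cup rise in the knockout was near the threshold (0.24 ± 0.07, limma adjusted p = 0.0398). On knockout rapamycin array 3 (f-cup -0.24) roX2 was lower than on arrays 1 and 2, at -5.83, but still well above background. The part of the male signal in the f-cup rise was not tested. atos, a nuclear regulator of macrophage tissue invasion, had -3.69, -3.97 and -3.96 against -2.55, -2.29 and -2.63 and, in the knockout, -4.03, -4.11 and -3.91 against -3.57, -3.42 and -3.56, a retained share of 36.0%. The other atos probes had differences of -1.16 ± 0.15 and -0.54 ± 0.20 beside -0.89 ± 0.16. With normexp the difference of atos was -0.026 (limma adjusted p = 0.978), and its call held in 20 of 25 other settings.

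TrpRS, which charges tRNA with tryptophan, was the 1 reduced fall with a symbol. It had 0.40, 0.63 and 0.44 against -0.94, -0.86 and -0.73 in control larvae and 0.30, -0.03 and 0.09 against -0.43, -0.46 and -0.65 in the knockout. The foods did not overlap in either genotype, and 47.8% of the effect remained. Of the targets without a symbol, FBtr0089735 kept 21.3% of a rise of 3.00 ± 0.11, FBtr0080306 32.1% of 3.37 ± 0.19, and FBtr0086510 25.4% of a fall of 2.68 on the log2 scale. Their calls held in all 25 other settings, and the second probe of FBtr0080306 had a difference of -2.26 ± 0.28 beside -2.29 ± 0.27.

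Kept responses numbered 1690, with median effects of 0.50 and 0.42 for the 665 rises and -0.66 and -0.52 for the 1025 falls. A difference that was not called does not show equality. In 879 of the 1690 the 95% interval of the difference lay within 0.5 on the log2 scale in either direction, and in the others a larger difference remains possible.

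The noncoding snoRNA host genes, whose introns carry the guides for ribosomal RNA modification, were kept in the 3 cases measured. Uhg2 had -1.12, -0.70 and -0.89 against -1.98, -1.99 and -1.95 in control larvae and -1.18, -1.54 and -1.54 against -2.35, -2.18 and -2.23 in the knockout. Uhg3 had -0.16, 0.37 and 0.37 against -0.49, -0.66 and -0.58, and in the knockout -0.02, -0.30 and -0.39 against -1.05, -1.10 and -1.15. The foods did not overlap in either genotype for either gene, and the retained shares were 77.6% and 113%. Uhg5 had 1.43, 1.81 and 1.66 against -0.21, -0.22 and -0.17, and 1.42, 1.07 and 0.95 against -0.16, 0.00 and -0.10, a share of 67.3%. Its difference of 0.60 ± 0.18 (interval 0.20 to 1.00) was just short of a call (limma adjusted p = 0.0535) and became one in 5 of the 25 other settings. Rrp42, which encodes an RNA exosome subunit, was also kept (-0.52 ± 0.12 and -0.74 ± 0.12). All 4 measured genes of the ribosome biogenesis list thus fell in both genotypes and were kept. Kept falls made up 5.46% of all tested targets. The list was chosen with earlier results of these data known, and its share was not tested against that background. The 0 of 4 with a called difference, beside 14.6% of all tested targets, are too few to set the list apart from the background.

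Of the 4 cytosolic ribosomal protein genes measured, RpL30 and RpS7 were kept, RpS14b was not resolved (0.23 ± 0.06 and an uncalled 0.13 ± 0.06), and RpS29 had no called effect in either genotype (-0.55 ± 0.25 and -0.25 ± 0.25). RpL30 had -0.02, 0.35 and 0.29 against 1.04, 1.10 and 1.10 in control larvae and 0.05, 0.41 and -0.27 against 0.82, 1.02 and 0.92 in the knockout, with an interval of the difference from -0.51 to 0.49. RpS7 fell by 0.77 and 0.64 on the log2 scale (interval -0.21 to 0.47). Of the genes for the mitochondrial ribosome, mRpL52 (-0.85 ± 0.14 and -0.57 ± 0.14) and mRpL14 (-0.84 ± 0.16 and -0.56 ± 0.16) were kept and mRpS16 (-0.87 ± 0.16 and an uncalled -0.41 ± 0.16) was not resolved.

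shop, the sulfite oxidase gene, had 2.27, 1.79 and 1.99 against 1.02, 0.90 and 0.94, and in the knockout 2.25, 1.85 and 2.52 against 1.39, 1.46 and 1.51. Its foods stood apart in both genotypes. Cyp1, a cyclophilin gene, kept 52.2% of a control fall of 0.85 on the log2 scale, with an interval of the difference from 0.03 to 0.78 that leaves out 0 although the adjusted p was 0.142 (limma). Among kept rises were cnc, the fly Nrf2 homologue (0.51 ± 0.08 and 0.35 ± 0.08), and the potassium channel gene sei (0.51 ± 0.09 and 0.33 ± 0.09). Others were spen, an RNA-binding regulator of several signalling pathways (0.49 ± 0.06 and 0.29 ± 0.06), and lncRNA:mimi (0.27 ± 0.07 and 0.23 ± 0.07). The interval of the spen difference, from -0.40 to -0.002, also left out 0.

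The 3 GATOR2 genes measured thus fell into 3 classes. mio was lost and Wdr59 reduced, the latter through a knockout call near the threshold (limma adjusted p = 0.0461). Wdr24, a dim target with -5.55 to -5.09 on all 12 arrays, showed no called effect in either genotype (0.12 ± 0.11 and 0.06 ± 0.11). Its difference ranged from -0.25 to 0.83 over the other settings. Of the autophagy and lysosome genes, Atg10, an enzyme of the Atg12 conjugation step, was kept (0.50 ± 0.06 and 0.26 ± 0.06), as was the vacuolar ATPase gene Vha13 (-0.65 ± 0.09 and -0.35 ± 0.09). The second Atg10 probe gave 0.15 and 0.13. CtsB, the cathepsin B gene, was not resolved, with -1.51, -1.73 and -1.48 against -1.13, -0.93 and -1.14 in control larvae and -1.71, -1.24 and -1.57 against -1.76, -1.48 and -1.39 in the knockout. With 0 of 3 called differences beside 14.6% of all tested targets, the list is too small to be set apart from the background.

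In lipid metabolism the breakdown gene Hsl lost its rise, while ATPCL, which makes acetyl-CoA for fatty acid synthesis, was called in the knockout alone (-0.66 ± 0.18 against 0.12 ± 0.18) with no called difference (-0.78 ± 0.26, limma adjusted p = 0.0740). The glycolytic aldolase gene Ald1 was not resolved (-0.83 ± 0.12 and -0.34 ± 0.12, adjusted p of the difference 0.0880). Among 4 cuticle and chitin genes, 2 had a called difference (14.6% of all tested targets did), and of these the call of Cpr60D held in 8 of 25 other settings. verm (-0.75 ± 0.17 and -0.23 ± 0.17), a chitin deacetylase gene, and Acp65Aa (-0.63 ± 0.32 and -0.28 ± 0.32) had none. Among 4 matrix and secretion genes, a list made with these results known, all 4 had one beside the same 14.6%, LanA, CrebA and Chpf higher and kek1 lower. Their calls held in 8 (LanA), 10 (Chpf), 14 (kek1) and 21 (CrebA) of 25 other settings, and the second CrebA probe went the other way. Measured members of any list that were not described above had no called difference. Among them puc, a phosphatase of JNK signalling, had effects of -0.06 ± 0.12 and -0.31 ± 0.12, snRNA:U12 of -0.19 ± 0.11 and -0.59 ± 0.11, and lncRNA:cherub of 0.36 ± 0.14 and 0.40 ± 0.14. The heat shock RNA lncRNA:Hsromega had -0.07 ± 0.18 and 0.03 ± 0.18.

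Of the 139 targets with a symbol, 10 had a higher and 12 a lower effect in the knockout, in all 15.8% beside 14.6% of all tested targets. Of 57 lncRNAs 6 were lower and 0 higher (10.5% called), and of 35 antisense RNAs 5 were higher and 0 lower (14.3%). Both shares are near the background. The 67 clones of the adult testis library had 1 higher and 2 lower (4.48%), and the clones of an adult head library had 9 higher and 15 lower (22.4%).

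Inversion, a call in opposite directions, was found for 95 targets, 62 that rose with REPTOR and fell without it (medians 0.50 and -0.35) and 33 of the opposite kind (-0.48 and 0.46). None of them carries a symbol other than a bare number, so they can be described only by identifier. FBtr0075208 had -1.92, -2.16 and -2.19 against -0.76, -0.61 and -0.79 in control larvae and -1.81, -2.19 and -2.18 against -2.47, -2.42 and -2.55 in the knockout. The genotypes overlapped on ethanol and moved apart on rapamycin, and a second probe gave effects of 1.05 and -0.36 beside 1.37 and -0.42. FBtr0070992 had -0.32, -0.07 and -0.15 against 0.96, 0.97 and 0.79, and in the knockout -0.58, -1.07 and -0.73 against -1.46, -1.45 and -1.47. All 4 groups of FBtr0070992 were free of overlap.

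In the other direction, FBtr0088752 had 2.69, 3.27 and 2.58 against 1.01, 1.18 and 1.17 in control larvae and 3.79, 3.64 and 3.34 against 4.28, 4.31 and 4.11 in the knockout. The genotypes already differed on ethanol and were further apart on rapamycin, and a second probe gave a difference of 2.42 ± 0.25 beside 2.37 ± 0.25. FBtr0084851 had -1.67, -1.28 and -1.20 against -1.63, -1.83 and -2.10 and, in the knockout, -1.48, -1.37 and -1.52 against -0.01, -0.17 and 0.27. Its fall in control larvae was small (-0.47 ± 0.16, limma adjusted p = 0.0402) and 1 of the control rapamycin arrays lay within the ethanol arrays, while the rise in the knockout was 1.49 ± 0.16. Of 18 further probes for inverted targets, all well above background on 12 arrays, 18 had the same sign of the difference and 15 the same sign of both effects.

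A response was gained in the knockout for 145 targets, 70 rises and 75 falls, with median control effects of -0.11 and 0.12. Mob2, which encodes an adaptor of NDR kinases, had -0.94, -0.91 and -0.91 against -1.12, -0.94 and -0.87 in control larvae and -1.02, -0.72 and -0.93 against -0.50, -0.48 and -0.47 in knockout larvae. Only the knockout rapamycin arrays stood apart, and a second probe gave a difference of 0.50 ± 0.11 beside 0.46 ± 0.12. The call held in 10 of 25 other settings. RE01061, a cDNA clone, had -2.08, -2.34 and -2.42 against -2.27, -2.65 and -2.68, and in the knockout -2.06, -2.54 and -1.86 against -3.99, -3.84 and -3.82. FBtr0086340, in contrast, was lower in the knockout on ethanol (-0.26, -0.39 and -0.56 against 0.33, 0.72 and 0.92), and on rapamycin it stood at 1.58, 0.98 and 1.37 against 0.64, 0.73 and 0.95.

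**Figure D4:**
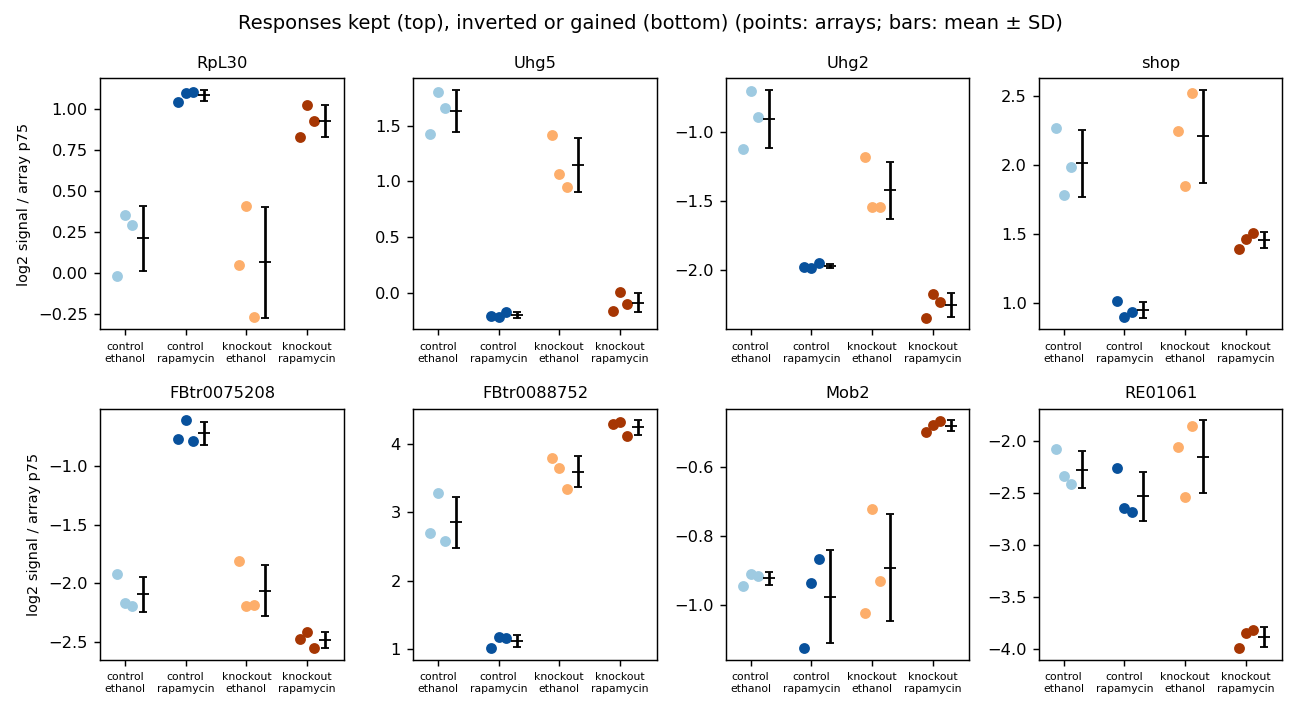
Levels (y axis, log2 signal relative to the 75th percentile of the array) of 4 kept targets (top) and of 2 inverted and 2 gained targets (bottom) in the 4 groups (x axis), one point per array, with the mean and SD of 3 arrays. RpL30, Uhg5, Uhg2 and shop move the same way in both genotypes, FBtr0075208 and FBtr0088752 move in opposite ways, and Mob2 and RE01061 move in the knockout alone.

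Further probes of the same targets repeat the RNA of the same larvae, and so bear on the probes and not on the animals. Among probes well above background on all 12 arrays, the sign of the difference matched in 549 of 582 for lost targets (94.3%), 132 of 133 for reduced, 35 of 35 for gained and 337 of 418 (80.6%) for kept targets, beside 3587 of 4368 (82.1%) over all tested targets.

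The classes were also read without the 3 arrays with the highest roX2. That leaves a single knockout rapamycin array, whose spread is then taken from the other groups. Its roX2 level of -5.83 was still well above background. The median difference of lost rises was -0.75 there against -0.76 with all arrays, that of lost falls 0.68 against 0.71, of inverted rises -0.87 against -0.93 and of inverted falls 0.94 against 1.05. There 981 differences were called, with 856 lost, 96 kept and 6 inverted targets when the classes were formed again. No slide of the arrays holds all 4 groups, so the difference has no value within a slide. With slide as a block it equals the knockout effect on slide 3 minus the control effect on slide 1 and uses a single control rapamycin array and a single knockout ethanol array. In that model 617 differences were called, and Nepl4, mio, Hsl, mxt, Wdr59 and f-cup were among them.

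**Figure D5:**
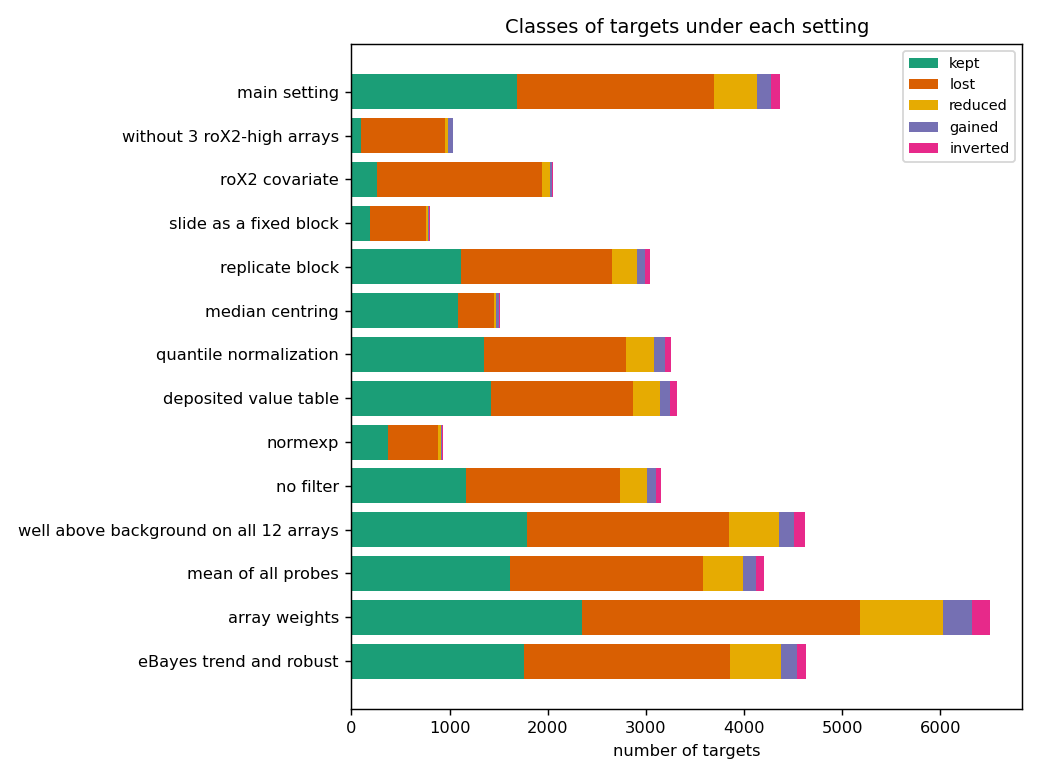
Number of targets (x axis) in each class, stacked by class, with the setting of this text and 13 others (y axis). Lost and kept targets make up most of every bar. The totals range widely, and the inverted class has 95 targets in the setting used and 5 (normexp) to 187 (array weights) in the others.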

How the data were processed

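Total RNA was measured on 12 one-colour (Cy3) arrays. The deposited scanner files hold spot intensity. Per the submitters' processing notes, Agilent Feature Extraction 10.7 produced them, and the column used is the background-corrected processed signal. Each array carried 43602 spots other than controls, with 72.5% to 82.7% of them well above background and 0 saturated. The number of arrays limits precision. The deposited value table holds a second intensity that followed the median spot signal (column medians 144 to 157, linear scale); how the authors made it is not given in the sources used here.

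Log2 processed signal was taken relative to the 75th percentile of the array. Control and outlier spots were left out and spots of a probe averaged. A target is a gene or, with no symbol, a sequence, represented by its brightest probe, and was tested if 1 group or more had all 3 arrays well above background. Of 32162 probes 494 matched 1 symbol, 3 several and 31665 none. Groups were fitted with limma 3.58.1 in R 4.3.3, as 4 groups with 8 residual degrees of freedom. Errors of effects are SEs. The series describes replicates of a condition as biological, without saying how many larvae were pooled in each, and p-values measure the spread between these samples. On simulated data of 18730 targets, 52% of 100 differences of size 1 (log2) and 84% of 100 of size 2 were recovered. There were 8 false calls among the targets left unchanged. The simulated noise was independent between targets, only 200 targets differed, and no slide or male signal was included. The simulation thus checks the fit and does not give the rate of false calls on these arrays.

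Per class and direction, the text names up to 8 genes with a symbol by size of the difference (kept: of the mean effect) and up to 3 further targets well above background on all arrays, plus members of 18 gene lists. Classes, lists and tests were chosen with earlier results of these data known. The normexp alternative used the median spot signal and an offset of 50, because no mean signal was at hand. Promoter motifs and sequences were not analysed here.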

Additional observations from a re-analysis of the deposited data

Results flagged for a closer look

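Each target named here had a rapamycin effect that differed between the genotypes in the limma model, with 2743 such calls among 18757 targets (14.6%). The values are differences (knockout minus control effect, log2), and no explanation was weighed.

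Among lost rises the differences were -2.76 for Nepl4, -1.52 for mio, -1.29 for snRNA:U11, -0.95 for Hsl, -0.88 for lncRNA:alphagamma-element:CR32865, -0.83 for kek1, -0.78 for mxt and -0.56 for caps. Those without a symbol were -8.01 for FBtr0087746, -3.97 for FBtr0082176 and -3.72 for TC237923. Among lost falls they were 1.05 for Cpr49Ag, 0.73 for aralar1, 0.51 for Cpr60D, 0.50 for CrebA and Chpf, 0.46 for LanA, 0.35 for cl and 0.31 for FeCH, and 3.56 for FBtr0085058, 2.92 for TC239916 and 2.90 for FBtr0082575.

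Reduced rises had -1.34 for f-cup and Wdr59, -0.89 for atos, -2.36 for FBtr0089735, -2.29 for FBtr0080306 and -2.20 for FBtr0332900. Reduced falls had 0.69 for TrpRS, 2.42 for FBtr0077239, 2.18 for FBtr0078226 and 2.00 for FBtr0086510. Inverted targets had -2.07 for FBtr0077117, -1.79 for FBtr0075208, -1.76 for FBtr0070992, 2.37 for FBtr0088752, 1.95 for FBtr0084851 and 1.87 for FBtr0082657.

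Responses gained in the knockout had 0.46 for Mob2, 1.79 for FBtr0082572, 1.71 for FBtr0084828, 1.60 for FBtr0086340, -1.86 for FBtr0076945, -1.78 for FBtr0087399 and -1.47 for RE01061. Responses larger in the knockout had 0.53 for FBtr0075091, 0.41 for FBtr0073180, -0.99 for FBtr0071398, -0.63 for FBtr0084711 and -0.49 for FBtr0087310.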

How the results depend on the processing

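Counts of called differences and classes depended on the processing, while the 50 named differences that were called kept their sign except for 4 values. Of the 37 named targets without a called difference, 19 had both signs among the settings. normexp turned snRNA:U11 to 0.43, lncRNA:alphagamma-element:CR32865 to 0.21 and mxt to 0.085, and the mean of all probes turned CrebA to -0.25. The cause of each change below was not tested. Settings that use fewer arrays change the precision as well, so they do not single out a cause.

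Median centring gave 431 differences (332 lower, 99 higher), 370 lost, 17 reduced, 1086 kept, 13 inverted and 28 gained targets, with 36.8% of the rise and 86.5% of the fall retained. Quantile normalization gave 761 higher differences, 284 reduced targets, 75% of the fall and 46.1% of the gap between rising and falling targets. The deposited value table gave 743 higher differences, 277 reduced targets and 73.0% of the fall. normexp gave 561 differences (390 lower, 171 higher), 513 lost, 26 reduced, 370 kept, 5 inverted and 15 gained targets and 34.3% of the rise. With no filter 267 were reduced, 55 inverted and 91 gained. Array weights gave 4284 differences (2170 higher), 838 reduced, 187 inverted and 302 gained.

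With slide as a fixed block, which uses 8 arrays for the difference, there were 617 differences (399 lower, 218 higher), 570 lost, 23 reduced, 189 kept, 7 inverted and 13 gained. With roX2 as a covariate 84 were reduced, 262 kept, 7 inverted and 22 gained, with 45.9% of the gap. Without the 3 arrays with raised roX2 there were 981 differences (639 lower, 342 higher), 856 lost, 30 reduced, 96 kept, 6 inverted and 49 gained, with 47.5% of the gap. Higher calls made up 45.4% in the setting used, 23.0% with median centring, 30.5% with normexp, 35.3% with slide as a block and 34.9% without the 3 arrays.

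The deviations of same-numbered arrays from their group means had correlations from -0.66 to 0.20. The lowest was that of control and knockout rapamycin arrays 3, with roX2 levels of -1.29 and -5.83. Control rapamycin array 3 had 0.67 with knockout rapamycin array 1, where roX2 was also raised. Such values cannot decide whether replicate numbers pair the samples. With the replicate block 1963 differences were called, with 249 reduced, 1115 kept, 56 inverted and 79 gained targets.

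Leaving out each array in turn gave 1858 to 2968 differences (1062 to 1593 lower, 787 to 1375 higher), 1380 to 2136 lost, 232 to 488 reduced, 798 to 1873 kept, 38 to 110 inverted and 77 to 185 gained targets. The retained shares were 42.7% to 60.4% of the rise, 45.5% to 59.5% of the fall and 46.0% to 55.1% of the gap. Single arrays that moved a count by over 1.5 times were control ethanol 2 (795 higher, 291 reduced, 90 gained) and 3 (807 higher, 80 gained), control rapamycin 2 (88 gained), knockout ethanol 1 (263 reduced, 798 kept, 38 inverted, 77 gained) and 3 (266 reduced, 1116 kept), and knockout rapamycin 1 (63 inverted, 94 gained) and 2 (787 higher, 232 reduced, 1013 kept, 40 inverted, 81 gained).

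A signal not well above background limits dim targets: 16566 of the 18757 were well above it on all 12 arrays.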
